A study of Mus musculus with 6 samples.

Results

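The integrated stress response and the unfolded protein response were examined in the left ventricular apex of mice that had lost PTIP, the protein of the gene Paxip1, in cardiomyocytes. The set held 44 genes chosen by name from knowledge of the pathways, with earlier results of these data known. Every probe set that the platform annotation ties to one of them alone was taken. That gave 104 probe sets for 43 genes, of 45037 probe sets and 18193 genes on the array. Gdf15 had no probe set tied to it alone, so its expression was not analysed here, and 2 probe sets shared between Phgdh and another gene were left out. Of the 43 genes, 32 had several probe sets, up to 6, and each gene is given below by its brightest probe set on average across the 6 mice. In 12 of them, probe sets of the same gene differed in sign. Values are log2 expression values, so a difference of 1 is a doubling, and all differences are knockout minus control.

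Both groups were female littermates aged 8 weeks on a mixed C57B6 and B6129 background, and both received tamoxifen at 20 mg/kg, with RNA taken 5 days after injection by one label, while another gives treatment over 5 days, so the number of injections is not known here. The 3 knockout mice (PTIP KO) carried a floxed and a null PTIP allele and a transgene for tamoxifen-inducible Cre, a recombinase joined to a modified estrogen receptor, under the alpha myosin heavy chain promoter. The 3 control mice (PTIP+) had a wild-type allele in place of the null one beside the floxed allele. No Cre transgene is named for them, so effects of the transgene, of the null allele and of the induced deletion cannot be told apart. The promoter is active in cardiomyocytes, while the apex holds other cell types too. In such bulk tissue, fewer cells of a type and less RNA per cell cannot be told apart. On the targeted gene, all 4 Paxip1 probe sets were lower in every knockout mouse than in every control, with differences from -1.83 to -0.95, and 3 of the 4 passed (limma, Benjamini-Hochberg adjusted p = 0.0240 to 0.0377).

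The integrated stress response starts with kinases that phosphorylate the translation factor eIF2 alpha, among them PERK (gene Eif2ak3), which senses unfolded protein in the endoplasmic reticulum (ER), and GCN2 (Eif2ak4), which senses lack of amino acids. Phosphorylation slows translation in general but raises that of ATF4, a transcription factor that induces genes of amino acid synthesis and transport, of glutathione breakdown and of feedback on the pathway. The unfolded protein response adds IRE1 (Ern1), which splices the mRNA of Xbp1, and ATF6, and these factors induce chaperones and degradation machinery of the ER. Much of the regulation of Eif2ak3, Ern1, Atf4, Xbp1 and Atf6 is by phosphorylation, translation, splicing or cleavage, which the array did not measure.

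The promoters are shown because ATF4 on one side and ATF6 and XBP1 on the other are known to bind different elements. The RefSeq promoter table (GRCm38.p6, 250 bases before to 50 after each start) held 44 windows for 39 of the 44 genes. Atf6, Eif4ebp1, Hyou1, Manf and Ppp1r15b had no window. The ATF4 targets counted by window therefore held Gdf15 but not Eif4ebp1, unlike those measured on the array. TGATGNAA, the core of the C/EBP-ATF response element, was searched on both strands and was found in 3.97% of all 32851 windows and in 9 of the 24 windows of the ATF4 target genes (37.5%), those of Asns, Atf3, Chac1, Fgf21, Nupr1, Pck2, Slc7a11, Trib3 and Vldlr. The ER stress response element, CCAAT and CCACG with 9 bases between them, was in 0.119% of all windows and in 6 of 13 windows of the ER genes (46.2%), those of Calr, Canx, Creld2, Dnajc3, Hsp90b1 and Pdia6. No window of the ATF4 targets held it, and among the ER genes Herpud1 alone held TGATGNAA and also the ER stress response element II, ATTGG and CCACG with 1 base between them, which was in 0.0365% of all windows. TGACGTGG, the unfolded protein response element, was in 0.676% of all windows and in none of these genes. The genes were picked for known regulation by these pathways, so the matches describe the set and are not evidence of binding in these hearts. The 250 bases before the start are shown for a pair of ATF4 targets and a pair of ER genes, with matches in capitals. In Chac1 the match lies on the opposite strand from 193 bases before the start, in Asns it starts 23 bases before it, in Hsp90b1 matches start at 212 and 107 bases before it, the latter on the opposite strand, and in Pdia6 at 98 bases before it.
Chac1 (chr2:119350992-119351241, plus strand): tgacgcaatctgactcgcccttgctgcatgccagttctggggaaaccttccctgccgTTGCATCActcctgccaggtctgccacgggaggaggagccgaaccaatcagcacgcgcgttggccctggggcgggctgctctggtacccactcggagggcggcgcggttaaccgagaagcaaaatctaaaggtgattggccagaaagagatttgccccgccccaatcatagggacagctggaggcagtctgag
Asns (chr6:7693210-7693459, minus strand): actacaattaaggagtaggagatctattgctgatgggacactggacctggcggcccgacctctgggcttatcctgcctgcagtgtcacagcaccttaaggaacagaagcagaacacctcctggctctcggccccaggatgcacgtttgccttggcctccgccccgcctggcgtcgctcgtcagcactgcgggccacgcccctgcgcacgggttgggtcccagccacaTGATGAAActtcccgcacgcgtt
Hsp90b1 (chr10:86705445-86705694, minus strand): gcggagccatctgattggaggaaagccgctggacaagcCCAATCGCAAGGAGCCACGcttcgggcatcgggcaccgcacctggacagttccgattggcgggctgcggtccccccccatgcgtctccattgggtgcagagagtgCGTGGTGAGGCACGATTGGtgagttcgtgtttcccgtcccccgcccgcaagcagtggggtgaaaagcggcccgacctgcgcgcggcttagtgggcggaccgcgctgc
Pdia6 (chr12:17266339-17266588, plus strand): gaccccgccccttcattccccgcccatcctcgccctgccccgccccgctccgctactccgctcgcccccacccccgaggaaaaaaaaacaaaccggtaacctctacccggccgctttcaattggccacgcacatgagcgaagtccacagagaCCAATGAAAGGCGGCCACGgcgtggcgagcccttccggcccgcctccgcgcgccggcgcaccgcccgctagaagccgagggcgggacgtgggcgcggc

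None of the 104 probe sets of the set passed an adjusted p under 0.05 in limma, against 86 of 45037 on the whole array (0.191%), and none of the 43 genes passed, against 52 of 18193 genes (0.286%). The smallest adjusted p among the genes was 0.188. At an unadjusted limma p under 0.05, 8 of the 43 genes stood out, 4 higher (Chac1, Atf5, Mthfd2 and Ppp1r15a) and 4 lower (Cebpb, Pdia6, Manf and Xbp1), while 9.27% of all genes were under that p, 5.47% higher and 3.8% lower. Among the 104 probe sets, 5 were higher and 10 lower at that p. Over the whole array 9.07% of probe sets were under it, 2017 higher and 2066 lower. Of the 104, 7 lay above and 15 below all controls in every knockout mouse (7.64% and 6.73% of all probe sets). Probe sets of the same gene are repeat measures, and the 15 hold all 4 of Xbp1. In 5 genes all 3 knockout mice lay above all 3 controls and in 6 genes below, where 9.44% and 6.57% of all genes did so. Over all genes the median difference was 0.02, and over the 43 genes it was -0.04, with 19 higher and 24 lower. The genes were chosen with earlier results of these data known, so the counts beside the array-wide shares describe the set and test nothing. What follows therefore describes levels and differences, none of which among the 43 genes is established at the array-wide threshold.

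**Figure D1:**
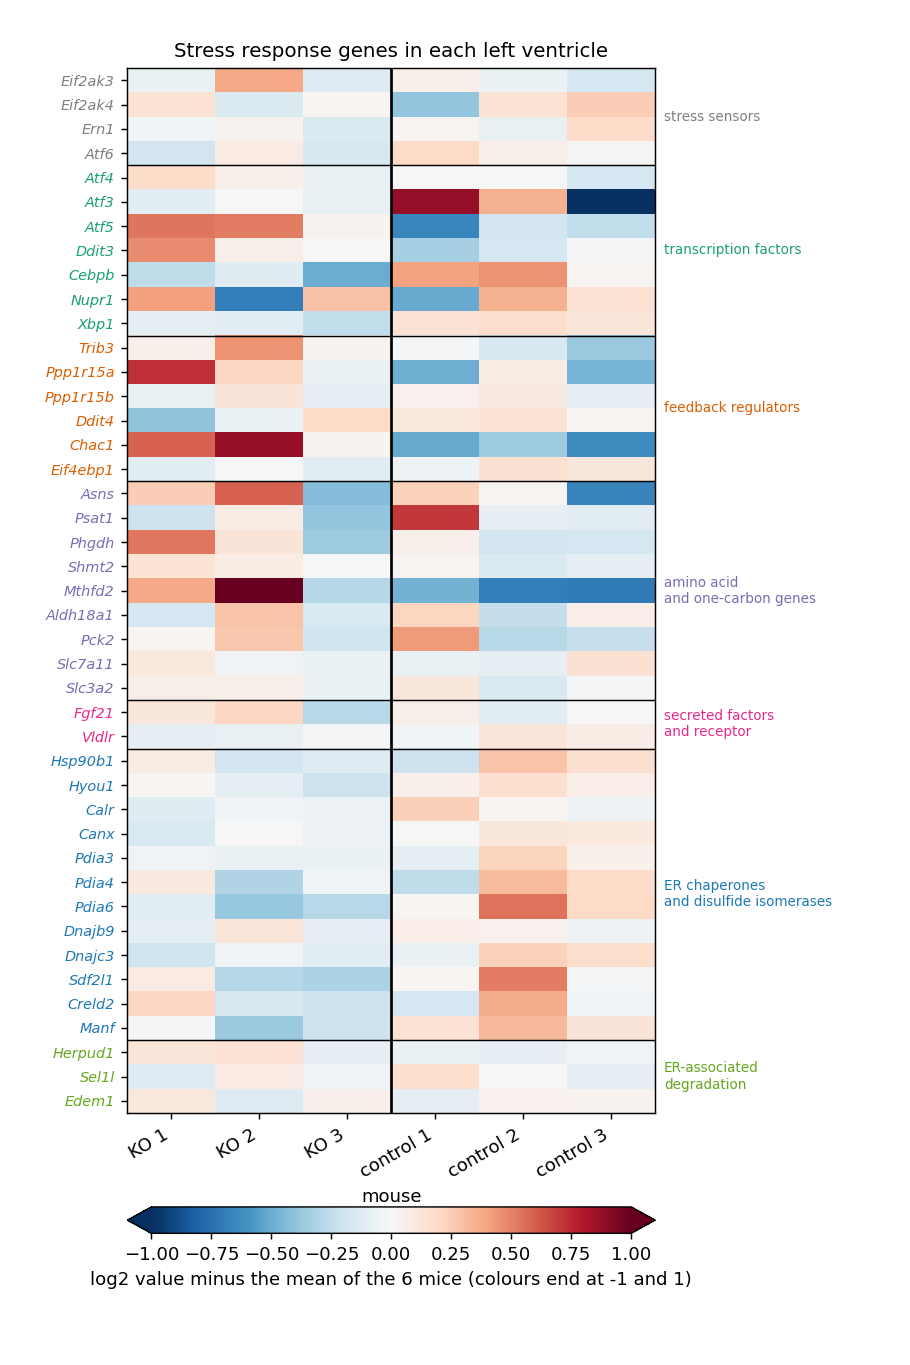
Heat map of the 43 measured genes (rows, grouped and coloured by role) in the 6 mice (columns, knockout left of the line, control right), coloured by the log2 value minus the gene's mean over the 6 mice. Chac1, Mthfd2 and Atf5 are orange to dark red in knockout 1 and 2 and blue in the controls, while the ER chaperones are pale with their deepest red in control 2.

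The stress sensors differed little. Atf6, an ER-anchored factor that is cleaved under stress, read 10.18, 10.44 and 10.19 in knockout 1, 2 and 3 and 10.55, 10.41 and 10.36 in control 1, 2 and 3. The groups overlapped, with a difference of -0.17 (95% interval -0.46 to 0.11, limma adjusted p = 0.765). Eif2ak3, the gene of PERK, read 8.10, 8.54 and 8.03 in knockout hearts and 8.21, 8.10 and 7.99 in the controls, a difference of 0.13 (95% interval -0.25 to 0.50, limma adjusted p = 0.890), and 2 of its 3 probe sets had the opposite sign. Ern1 and Eif2ak4 differed by -0.09 and 0.01. All 4 sensors had overlapping groups, and the intervals of the 4 genes lay within -0.46 and 0.50.

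Among the transcription factors, Atf5 was higher and Cebpb lower in every knockout mouse. Atf5, a relative of ATF4 that is itself translated under stress and acts on mitochondrial stress genes, read 9.77, 9.75 and 9.27 in knockout hearts and 8.59, 9.05 and 8.99 in the controls. The groups did not overlap and the means differed by 0.72 (SE 0.19, 95% interval 0.28 to 1.16, limma adjusted p = 0.288), or 1.65-fold, on its only probe set. Cebpb, a basic leucine zipper factor that pairs with ATF4 and is also abundant in macrophages and liver, read 8.39, 8.52 and 8.15 in the knockout mice. The controls read 9.05, 9.10 and 8.67, again without overlap, a difference of -0.59 (SE 0.16, 95% interval -0.96 to -0.21, limma adjusted p = 0.313). The dim second probe set of Cebpb differed by -0.18. Markers of macrophages were lower as well. All 8 measured macrophage markers had lower means in the knockout mice, with a median difference of -0.33, and their summed linear level was 5002 to 7123 in the knockout mice against 7194 to 7960 in the controls. None of the 8 passed, none had a level below the lower quartile of all probe sets, and their part in the Cebpb difference was not tested.

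The next values concern factors named after their values were seen. Xbp1, the factor whose mRNA IRE1 splices, read 9.88, 9.87 and 9.73 in knockout hearts and 10.12, 10.15 and 10.10 in the controls. The spread within each group was small (SD 0.09 and 0.03, n = 3 each), the groups did not overlap, and the difference was -0.30 (SE 0.10, limma adjusted p = 0.448). All 4 Xbp1 probe sets were lower in every knockout mouse, with differences from -0.45 to -0.23. Ddit3, the gene of CHOP, a factor induced by ATF4 in prolonged stress, read 10.18, 9.77 and 9.71 in the knockout mice against 9.38, 9.54 and 9.70 in the controls, a difference of 0.35 (limma adjusted p = 0.591). Its second, dimmer probe set had the opposite difference of -0.63 (limma adjusted p = 0.438), and the mean of both was -0.14, so the array gives no direction for Ddit3. Atf4 itself was bright, at 11.21 ± 0.13 against 11.10 ± 0.10 (SD, n = 3 each), and differed by 0.11 (95% interval -0.16 to 0.39, limma adjusted p = 0.858). Nupr1, a small stress-induced chromatin protein, differed by 0.01. Atf3, an early stress factor, differed by -0.13 with a wide interval of -1.14 to 0.89,. Its controls read 8.57, 8.04 and 6.65, while the knockout mice lay between 7.58 and 7.69.

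Among the feedback regulators, Chac1 had the smallest p of all 43 genes. Chac1 encodes an enzyme that breaks down glutathione and is induced by ATF4. It read 8.36, 8.64 and 7.81 in knockout 1, 2 and 3 and 7.26, 7.40 and 7.14 in control 1, 2 and 3. Every knockout mouse lay above every control and the means differed by 1.00 (SE 0.21, 95% interval 0.51 to 1.5, limma adjusted p = 0.188), or 2.0-fold, and the exact permutation p = 0.1 is the smallest that 3 against 3 mice allow. Ppp1r15a encodes GADD34, which guides a phosphatase back to eIF2 alpha and so ends the response. It read 9.63, 9.10 and 8.83 in knockout hearts and 8.41, 8.97 and 8.43 in the controls, where control 2 lay above knockout 3, and differed by 0.59 (SE 0.24, 95% interval 0.03 to 1.15, limma adjusted p = 0.528). Without knockout 1 the Ppp1r15a difference was 0.37. Its constitutive counterpart Ppp1r15b differed by -0.03. Trib3, a pseudokinase that restrains ATF4 and CHOP and is named after its values were seen, had no overlap, with 7.03, 7.43 and 7.01 against 6.97, 6.82 and 6.61 and a difference of 0.36 (limma adjusted p = 0.569), or 0.22 without knockout 2. The remaining feedback genes, both restraints on mTOR signalling or on cap-dependent translation, went the other way, with -0.18 for Ddit4 and -0.14 for Eif4ebp1.

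**Figure D2:**
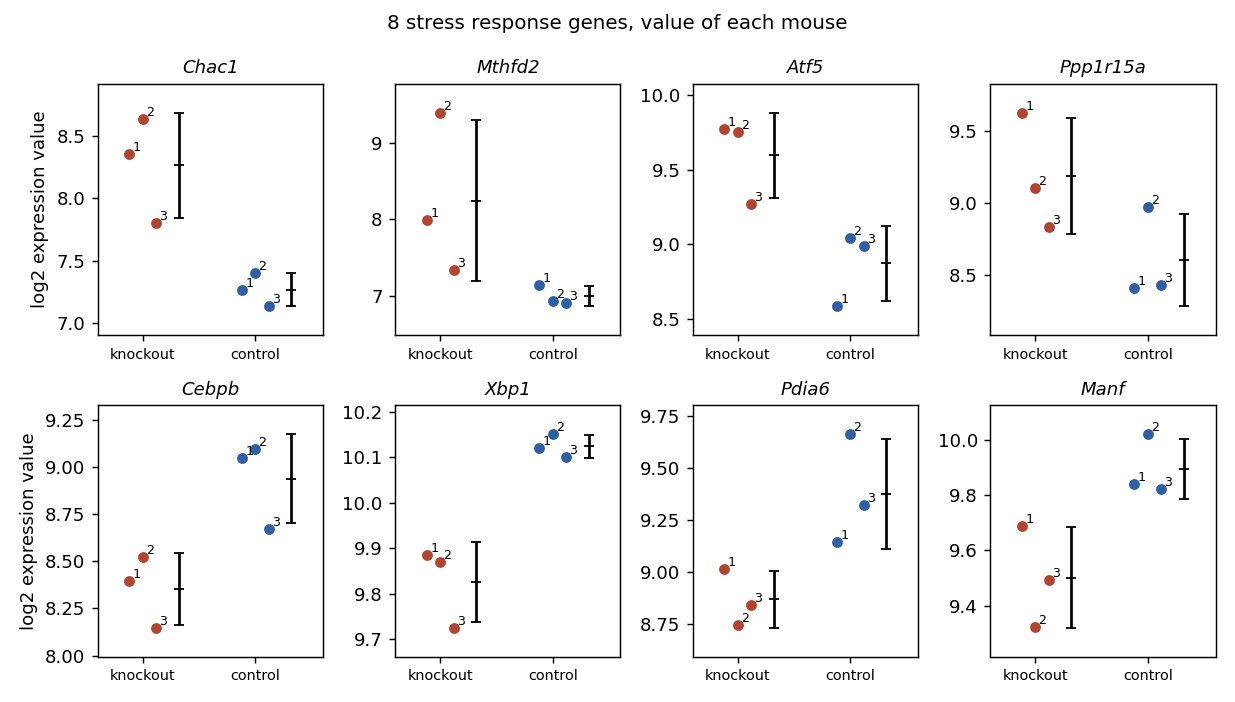
Log2 expression values of 8 genes with an unadjusted limma p under 0.05, one panel per gene with its own axis, points for single mice marked with their number, and bars for mean ± SD (n = 3). Knockout 3 is the lowest knockout mouse in Chac1, Mthfd2, Atf5 and Ppp1r15a, and Ppp1r15a is the panel in which the groups overlap.

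Among the genes of amino acid and one-carbon metabolism, Mthfd2 had the largest difference of the 9. Mthfd2 encodes a mitochondrial enzyme of folate-bound one-carbon units that is low in most adult tissues. It read 7.99, 9.39 and 7.33 in knockout hearts and 7.14, 6.93 and 6.91 in the controls. The groups did not overlap, but the knockout mice spread widely (SD 1.05, n = 3) against the controls (SD 0.13, n = 3). The difference was 1.25 (SE 0.46, 95% interval 0.17 to 2.32, limma adjusted p = 0.472), or 2.37-fold, and it was 0.67 without knockout 2. The second Mthfd2 probe set had nearly the same difference, 1.18. Psat1, a transaminase of serine synthesis, read 8.35, 8.63 and 8.16 in knockout hearts and 9.26, 8.47 and 8.45 in the controls, a difference of -0.35 (95% interval -0.91 to 0.22, limma adjusted p = 0.764) that was -0.08 without control 1. Asns, asparagine synthetase, is the classical ATF4 target whose promoter is shown above. It read 8.47, 8.81 and 7.78 against 8.45, 8.25 and 7.56. The difference was 0.27 (95% interval -0.46 to 1.00, limma adjusted p = 0.873). It was 0.04 without knockout 2 and 0.0083 without control 3, but 0.56 without knockout 3 and 0.45 without control 1. Phgdh, the first enzyme of serine synthesis, differed by 0.20, Shmt2, the mitochondrial serine hydroxymethyltransferase, by 0.14, Pck2, the mitochondrial enzyme that makes phosphoenolpyruvate, by 0.06, Slc3a2, the heavy chain of several amino acid transporters, by 0.04, and Aldh18a1, an enzyme of proline synthesis, by -0.03. Slc7a11, the cystine transporter, read 1.93 to 2.17 in all mice, below the lower quartile of probe set levels (3.0), and is too dim to compare.

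The secreted factor and the receptor gave little. Fgf21, a hormone that stressed muscle can release, read 3.09, 3.19 and 2.70 in knockout hearts and 3.04, 2.88 and 2.98 in the controls, near the lower end of the scale, with a difference of 0.03 (95% interval -0.32 to 0.37, limma adjusted p = 0.984). Vldlr, the very low density lipoprotein receptor, was among the brightest genes of the set, at 11.95, 11.96 and 12.03 against 12.01, 12.16 and 12.11. It differed by -0.11 (95% interval -0.35 to 0.13, limma adjusted p = 0.835), and all 6 of its probe sets had lower means, with differences from -0.36 to -0.08.

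All 12 ER chaperones and disulfide isomerases had a lower mean in the knockout mice, while 44.9% of all genes and 46.0% of genes above the median probe set level did. Their differences were small, with a median of -0.16 and a range from -0.51 to -0.04. Pdia6, a protein disulfide isomerase that also restrains IRE1, read 9.02, 8.75 and 8.84 in knockout hearts and 9.14, 9.66 and 9.32 in the controls. The groups did not overlap and the difference was -0.51 (SE 0.16, 95% interval -0.88 to -0.14, limma adjusted p = 0.389), or 1.42-fold lower. Manf, a secreted protein of the ER that is protective in the stressed heart of mice, read 9.69, 9.33 and 9.49 in the knockout mice. The controls read 9.84, 10.02 and 9.82, all above them, a difference of -0.39 (SE 0.13, 95% interval -0.70 to -0.08, limma adjusted p = 0.427). Hyou1 and Canx, a large ER chaperone and the membrane lectin calnexin, also had no overlap on their brightest probe sets, with differences of -0.19 and -0.14. The other 8 overlapped between groups: Sdf2l1, a partner of ER Hsp40 proteins, at -0.35; Dnajc3, a cochaperone and inhibitor of eIF2 alpha kinases, at -0.23; Hsp90b1, the ER Hsp90, at -0.16; Pdia4 at -0.16 and Pdia3 at -0.12, both disulfide isomerases. Calr, the soluble lectin calreticulin, was at -0.14, Creld2, a disulfide isomerase induced by ER stress, at -0.11 and Dnajb9, an ER Hsp40, at -0.04. The second Hsp90b1 probe set had a larger difference of -0.50 (limma adjusted p = 0.298), and that of the first was -0.06 without control 2 and -0.30 without control 1. The dimmer Hyou1 probe sets overlapped between groups, with differences of -0.23 and 0.10. Of the dimmer Canx probe sets, one overlapped, at -0.08, and the other did not, at -0.34.

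The 3 genes of ER-associated degradation did not share that sign. Herpud1, a membrane protein of the degradation complex, read 11.83, 11.85 and 11.62 in knockout hearts and 11.65, 11.63 and 11.68 in the controls, a difference of 0.12 (95% interval -0.14 to 0.38, limma adjusted p = 0.841). Sel1l, the adaptor of the ligase HRD1, read 10.75, 10.96 and 10.84 against 11.05, 10.87 and 10.78, a difference of -0.05 (95% interval -0.33 to 0.23, limma adjusted p = 0.948), and its 5 probe sets ran from -0.07 to 0.23. Edem1, a lectin that extracts misfolded glycoproteins, differed by 0.02. In all 3 genes the groups overlapped.

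**Figure D3:**
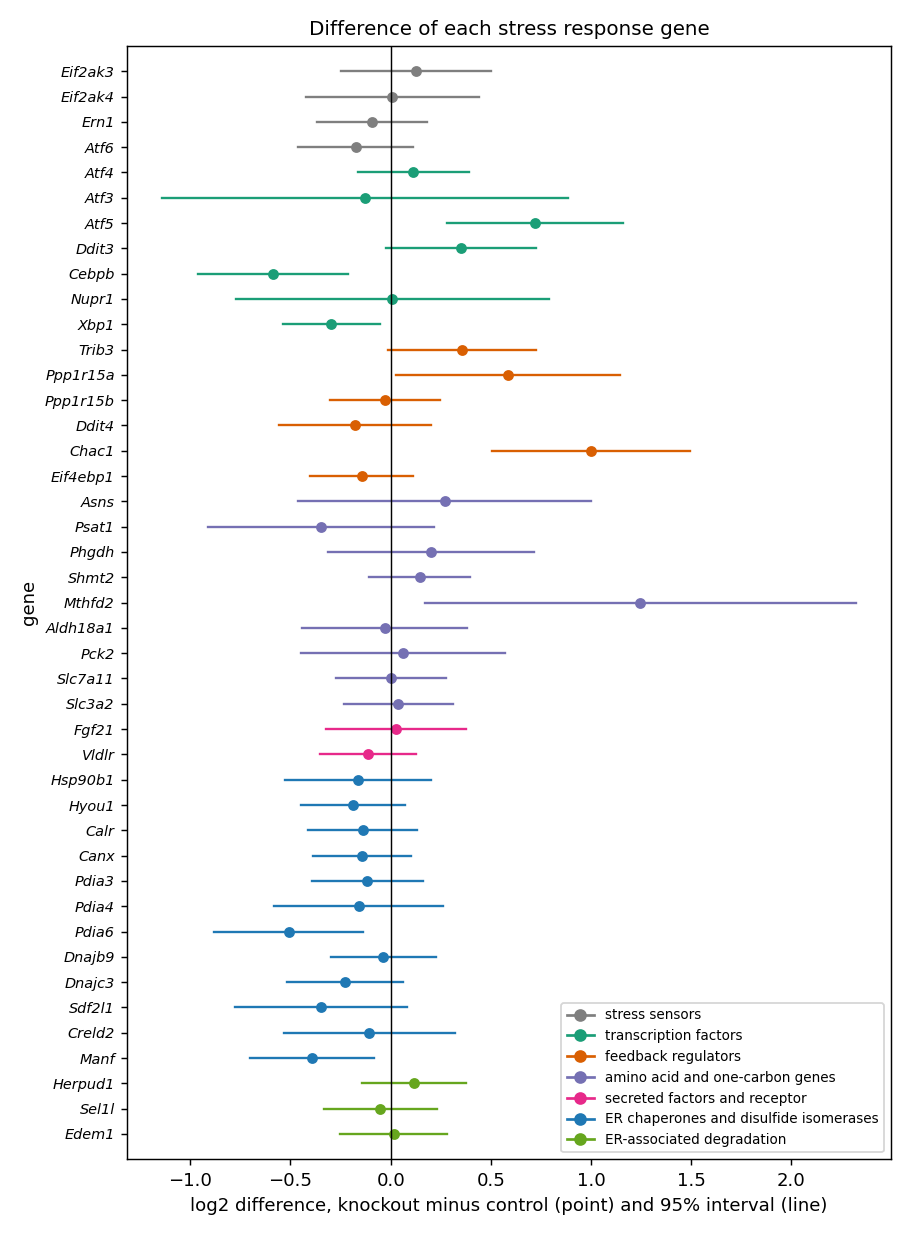
Log2 difference (knockout minus control) of each of the 43 measured genes on its brightest probe set, with its 95% interval from limma (n = 3 per group), coloured by role. The 12 ER chaperones all lie left of 0, between -0.51 and -0.04, while Chac1, Mthfd2 and Atf5 lie farthest to the right.

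The ATF4 targets and the ER genes were counted separately. The measured ATF4 targets were the genes of amino acid and one-carbon metabolism, with Fgf21 and Vldlr. They also held Atf3, Atf5, Ddit3, Nupr1, Trib3, Ppp1r15a, Ddit4, Chac1 and Eif4ebp1. Cebpb, Stc2 and Slc38a2, all lower in the knockout mice, and Cth, which was higher, were not counted among them. The counts depend on this choice. Among 20 measured ATF4 targets, 14 (70%) were higher and 6 lower, beside 55.1% higher of all genes, and the median difference was 0.05, beside 0.02 for all genes. Of the 14, Slc7a11 and Fgf21 lie below the lower quartile of levels with differences near 0. In the 18 ATF4 targets above the median probe set level, 12 were higher and the median was 0.10. In 5 of the 20 all knockout mice lay above all controls (9.44% of all genes), and in none below, with Ddit3 among the 5. With Ddit3 taken by its second probe set, 13 of 20 were higher, 4 lay above all controls and 1 below, and the median was 0.03. Among the 15 ER genes, chaperones and degradation together, 13 were lower and the median difference was -0.14. In 4 of the 15 all knockout mice lay below all controls (6.57% of all genes), and in none above. The median of the ATF4 targets exceeded that of the ER genes by 0.19, and no test was made of this difference, since the genes were chosen with results known.

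The medians were uneven across mice. The median deviation of the ATF4 targets from their mean over 6 mice was 0.11, 0.10 and -0.07 in knockout 1, 2 and 3 and 0.01, -0.12 and -0.10 in control 1, 2 and 3, so knockout 3 lay below control 1. Knockout 3 was the lowest knockout mouse in 14 of the 20 genes (70%), against 27.3% of all genes. For the ER genes the medians were -0.01, -0.09 and -0.09 in knockout hearts and 0.00, 0.22 and 0.05 in the controls. Control 2 was the highest of all 6 mice in 10 of these 15 genes, against 12.1% of all genes. Without control 2 the median difference of the ER genes was -0.07, and 12 of 15 had a lower mean. The median of the ATF4 targets was 0.23 without control 1, 0.17 without knockout 3, 0.03 without knockout 1 and 0.03 without knockout 2. With knockout 3 as the only knockout mouse it was -0.05, with 9 of 20 genes higher. Knockout 1 and 2 carry description numbers with other leading digits than the remaining 4 mice, among them all controls. The labels do not say what the numbers are, and whatever they mark cannot be told apart from the knockout in these 2 mice. A log2 gap between the 3' and 5' ends of the actin control transcript, which widens as RNA degrades, was largest in control 1 (1.85) and smallest in control 2 (1.17), with 1.38 in control 3 and 1.45 to 1.64 in the knockout mice. Its part in these medians was not tested.

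**Figure D4:**
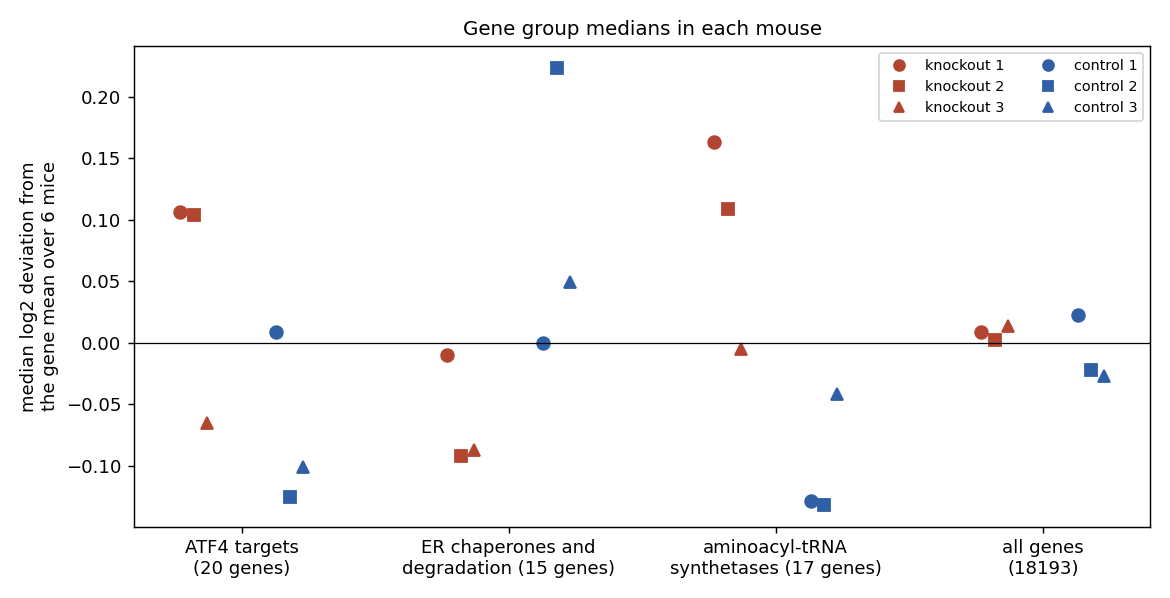
Median over a gene group of the log2 value minus the gene's mean over the 6 mice, 1 point per mouse (red knockout, blue control, shape by mouse number). For the ER genes control 2 lies far above the other 5 mice, for the ATF4 targets knockout 3 lies among the controls, and for the synthetases all knockout mice lie above all controls.

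Other genes of the same pathways were examined on 4 further lists. Aminoacyl-tRNA synthetases charge tRNAs with amino acids, and many are induced by ATF4. All 17 measured cytosolic synthetases had a higher mean in the knockout mice, beside 55.1% of all genes, with a median of 0.16 and a range from 0.00 to 0.39. None passed, and 4 had an unadjusted limma p under 0.05 (5.47% of all genes were higher at that p). Wars, for tryptophan, read 10.04, 9.87 and 9.87 in knockout hearts and 9.62, 9.54 and 9.59 in the controls, a difference of 0.35 (SE 0.11, limma adjusted p = 0.378). Tars, for threonine, read 10.18, 10.38 and 10.27 against 9.92, 10.10 and 9.79, a difference of 0.34 (SE 0.12, limma adjusted p = 0.468). Both genes had groups without overlap, and the per-mouse medians of the synthetases were 0.16, 0.11 and -0.0048 in knockout hearts and -0.13, -0.13 and -0.04 in the controls. Knockout 1 was the highest of all 6 mice in 11 of the 17 synthetases, against 22.1% of all genes. Knockout 3 was the lowest knockout mouse in 9 of the 17, against 27.3% of all genes. With any 1 mouse left out, 15 or 16 of the 17 were higher.

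Of 18 measured other genes of the ATF4 pathway, 2 fell and none rose, where 0.176% of all genes fell, and both that fell are known as genes that ATF4 induces. Stc2, which encodes the secreted glycoprotein stanniocalcin 2, read 8.27, 8.33 and 8.31 in knockout hearts and 9.14, 9.13 and 9.37 in the controls. It fell by 0.91 on the log2 scale (SE 0.11, limma adjusted p = 0.0476), or 1.88-fold. Slc38a2, a sodium-coupled transporter of small neutral amino acids, read 10.06, 10.34 and 10.32 against 11.19, 11.26 and 11.08, and fell by 0.94 (SE 0.12, limma adjusted p = 0.0496), or 1.92-fold. Both calls are close to the threshold, and each was lost when any 1 mouse was left out (limma adjusted p = 0.0831 to 0.200), while the differences ran from -0.95 to -0.83 for Stc2 and from -0.99 to -0.85 for Slc38a2. Cth, the enzyme that makes cysteine from cystathionine, named after its values were seen, read 6.88, 6.08 and 6.40 against 5.32, 5.24 and 5.91, a difference of 0.97 (SE 0.25, limma adjusted p = 0.288). Gpt2, an alanine transaminase of mitochondria, also named after its values were seen, read 10.49, 10.42 and 10.43 against 10.84, 10.80 and 11.05, a difference of -0.45 (SE 0.11, limma adjusted p = 0.269). At an unadjusted limma p under 0.05, 1 gene of the list was higher and 3 were lower (5.47% and 3.8% of all genes). In 1 gene all knockout mice lay above all controls and in 4 below (9.44% and 6.57% of all genes). Over the whole list 9 means were higher and 9 lower, with a median of 0.01.

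**Figure D5:**
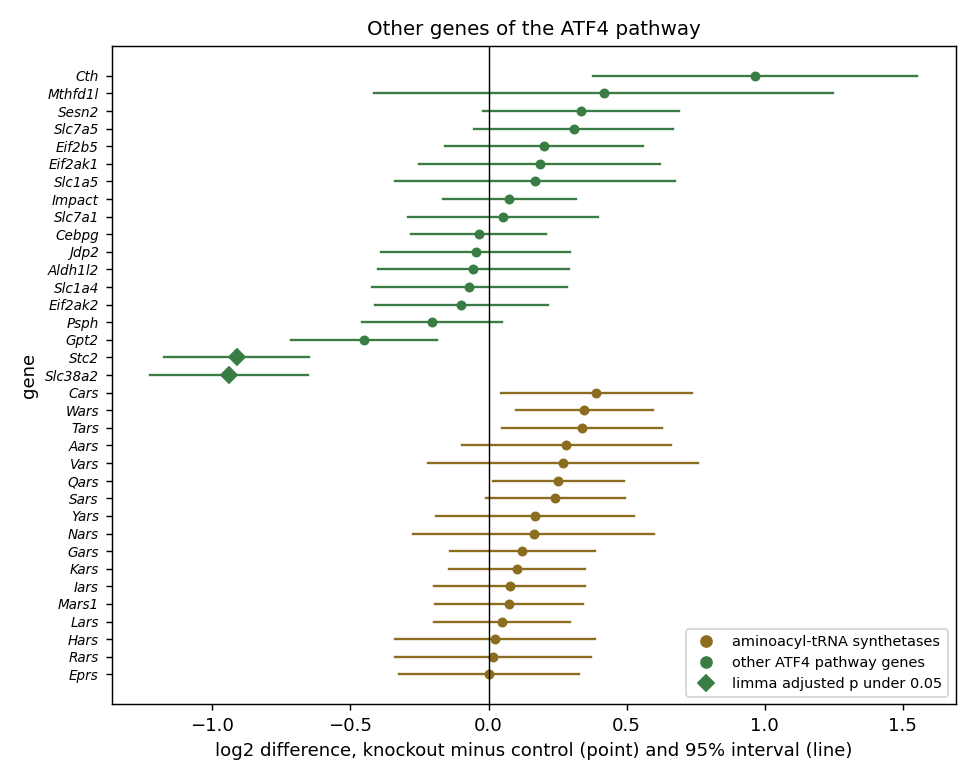
Log2 difference (knockout minus control) with its 95% interval from limma (n = 3 per group) for 18 other ATF4 pathway genes (green) and 17 aminoacyl-tRNA synthetases (brown), sorted within each list, with diamonds for an adjusted p under 0.05. The synthetases all lie at or right of 0, while Stc2 and Slc38a2 lie near -0.9 and are the only diamonds.

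The remaining lists showed less. Of 22 other ER folding and degradation genes none passed, 12 were higher and 10 lower, and the median was 0.04. Its smallest p values were those of Edem2, a relative of Edem1, at 0.38 (limma adjusted p = 0.472) and Creb3l2, a membrane-bound factor, at -0.17 (limma adjusted p = 0.731). Hspa5, the central ER chaperone BiP, named after its values were seen, differed by -0.19 (limma adjusted p = 0.776). Of 10 genes of the mitochondrial unfolded protein response none passed, 7 were higher, and the median was 0.04. Lonp1, a protease of the mitochondrial matrix, differed by 0.37 (limma adjusted p = 0.438) and Clpx, the chaperone of another, by -0.10 (limma adjusted p = 0.895).

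Markers of 10 cell types were examined for cells other than cardiomyocytes that the apex can hold. Cardiomyocyte markers were bright in all mice, with a median difference of -0.01 over 11 genes, and fibroblast markers had a median of 0.01 over 8. All 4 mesothelial markers were lower in mean, with a median of -0.70 and summed linear levels of 293 to 966 against 519 to 945, which overlapped. Over the 8 lists other than macrophages and mesothelium, list medians lay between -0.32 and 0.36 and none of 50 measured markers passed. Endothelial markers had a median of 0.10 over 8 genes, and smooth muscle and pericyte markers 0.14 over 7. The median was 0.0041 over 4 neutrophil markers, 0.36 over 2 adipocyte markers and -0.32 over 3 erythroid markers. Lymphocyte and plasma cell markers had a median of -0.21, with summed linear levels of 1040 to 1180 in knockout hearts and 1070 to 1676 in the controls. The part of these cell types in the lower means of the ER chaperones was not tested.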

How the data were processed

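Total RNA of the left ventricular apex was measured with 1 Affymetrix array per mouse, 3 per group. The deposited values are log2 expression values that the authors made with RMA, per the submitters' processing notes. No version of RMA is stated. Base 2 is a reading of the values, which run from 1.36 to 14.3. RMA equalises arrays, so a change in total RNA cannot be seen, and it compresses changes of dim probe sets. The number of arrays limits the precision, with a median standard error of 0.147.

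Of 45101 probe sets, 64 controls were left out. The platform annotation gave 1 gene for 34945 probe sets, several for 932, and did not list 9160. Symbols were updated by Entrez identifier through a RefSeq table of GRCm38.p6. The knockout and control arrays entered a fit of limma 3.58.1 (R 4.3.3) with group as the only term, two-sided, and p values adjusted over all 45037 probe sets with a threshold of 0.05. The code was tested on simulated data. The genes, lists and naming rule were chosen with earlier results of these data known. Named by rule were the 2 genes of each role or pathway list with the smallest p. Of the 10 cell type lists median differences are given. Summed levels are given for macrophage, mesothelial, and lymphocyte and plasma cell markers only. Each array is 1 mouse, and which mice shared a litter is not stated. Same-numbered mice were not treated as pairs. The correlations of their deviations from the group means were -0.15, -0.08 and -0.01, and those of mice with different numbers ran from -0.18 to 0.20. With 3 mice per group these values cannot show whether the numbers mark pairs. The exact permutation test is two-sided.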

Additional observations from a re-analysis of the deposited data

How the results depend on the processing

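None of the 43 genes passed in any of 15 other settings, and none of the 104 probe sets in the 14 settings that keep probe sets apart, where the level filter tested only 41 genes and 84 probe sets of the set. Array-wide calls, 86 in the reported fit, were 185 with a variance trend, 51 with a robust prior, 204 with array weights, 0 with knockout 3 and the controls only, and 0 to 21 with 1 mouse left out. With the replicate block 0 probe sets passed (member genes 0, arm medians unchanged), and whether equal numbers mark pairs is not known. Genes of the set at an unadjusted p under 0.05 were 8 in the reported fit, 5 to 9 with 1 mouse left out, and 2 with knockout 3 and the controls only. That setting takes the mice whose description numbers share leading digits, and assumes that the lone knockout mouse varies like the controls. The median of the ER genes kept its sign in all 15 settings (-0.21 to -0.07), with 12 to 14 of 15 genes lower. The gap between ATF4 targets and ER genes stayed above 0, from 0.07 to 0.44, with 0.34 with array weights and 0.13 to 0.44 with 1 mouse left out. The median of the ATF4 targets was -0.055 with knockout 3 and the controls only, where 9 of 20 genes were higher, and 0.032 to 0.233 with 1 mouse left out. Counts of higher and lower genes per group of genes, and the counts with Ddit3 by its second probe set, were added after seeing the data. Centring each array on its median moved the ER median to -0.10 and that of the ATF4 targets to 0.09.

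Stc2 (adjusted p = 0.0523) and Slc38a2 (adjusted p = 0.0539) missed the threshold with a robust prior and with the replicate block (adjusted p = 0.204 for both), and with knockout 3 and the controls only (adjusted p = 0.867 and 0.852), and Slc38a2 missed it with centred arrays (adjusted p = 0.0667). Signs of 7 named genes turned, among them Asns (0.27 in the reported fit, SE 0.31) and Ddit3 (0.35, SE 0.16). The reported Asns difference is smaller than its standard error, and the limma intervals of both genes hold both signs. With knockout 3 and the controls only the differences were -0.064 for Eif2ak3, -0.26 for Fgf21, -0.028 for Herpud1, -0.015 for Atf4 and -0.30 for Asns. With the mean of all probe sets they were -0.11 for Eif2ak3, 0.047 for Sel1l and -0.14 for Ddit3. With array weights they were -0.028 for Fgf21 and 0.0038 for Sel1l. With 1 mouse left out they ranged from -0.071 to 0.17 for Fgf21, from -0.033 to 0.221 for Eif2ak3 and from -0.11 to 0.022 for Sel1l. Fgf21 and Slc7a11 lie below the level filter and were not tested under it. The cause was not tested. Differences below about the standard errors given lie beyond what 3 arrays per group resolve. Larger differences whose limma interval holds both signs are not resolved either. Canx, at -0.14 with a standard error of 0.10, had an interval from -0.39 to 0.10.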
